A study of Mus musculus with 24 samples.

Results

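The genes described here encode the chaperones and ATP-dependent proteases of the mitochondrial matrix: Hspd1, Hspe1, Hspa9, Grpel1, Trap1, Clpp, Clpx and Lonp1. They were chosen by name, and every probe on the arrays that carries one of these names was taken, which gave 13 probes for the 8 genes, out of 19356 probes and 13486 genes tested. Their RNA was measured in fibroblasts that were cultured from mouse embryos of day 13.5. The parents were heterozygous for CHIP, CHIP (+/-), on the C57BL6 strain, and every culture had β-mercaptoethanol, a reducing agent, in its medium. CHIP is the product of Stub1 and attaches ubiquitin to clients of the cytosolic HSP70 and HSP90 chaperones. The 8 groups, of 3 biological replicates each, were CHIP null cells, CHIP(-/-), heated to 43 °C or kept at 37 °C as controls, and wildtype cells, CHIP(+/+), heated or kept in the same way, each with a time label of 240 or 30 min. The labels do not say whether replicates came from separate embryos, and the p-values measure the spread between these samples. Levels are given as log2 of the ratio of the sample to a common reference RNA on the same array, so 0 means the level of the reference. A level shows a gene relative to its own level in the reference, so the genes are not ranked by abundance.

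Proteins made in the cytosol enter the matrix unfolded. Hspa9, the matrix HSP70, pulls them in and folds them, with Grpel1 as the nucleotide exchange factor that resets it. Hspd1 and Hspe1, or HSP60 and HSP10, form a barrel and its lid in which folding is completed, and Trap1 is the mitochondrial member of the HSP90 family. Proteins that fail to fold are degraded by Lonp1 or by the Clpx unfoldase and the Clpp peptidase. Several of these genes are known targets of the mitochondrial unfolded protein response, and in mammals the Hspd1 and Hspe1 genes lie head to head and share a promoter, known to respond to heat shock.

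The shared promoter is shown because Hspd1 and Hspe1 RNA differed in their response to heat in these cells. The sequences are RefSeq's, build GRCm38.p6, as windows of 250 bases before to 50 bases after a transcript start. Of the 8 genes, 7 had a window, and Hspa9 is described by its values alone. Capitals mark heat shock element letters, inverted repeats of the 3-base unit GAA or TTC with 2 bases between units, searched on both strands. The first sequence is the Hspe1 window at chr1:55087898-55088197 on the plus strand, the second a stretch of an Hspd1 window at chr1:55088047-55088088 on the minus strand, and the last a stretch of the Clpp window at chr17:56990285-56990313 on the plus strand.
Hspe1: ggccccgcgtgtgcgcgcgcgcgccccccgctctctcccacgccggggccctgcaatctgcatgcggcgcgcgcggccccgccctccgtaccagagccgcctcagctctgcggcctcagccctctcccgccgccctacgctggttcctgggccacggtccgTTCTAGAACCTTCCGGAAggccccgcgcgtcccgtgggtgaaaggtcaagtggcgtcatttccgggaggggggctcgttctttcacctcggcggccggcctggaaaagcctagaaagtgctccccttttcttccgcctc
Hspd1: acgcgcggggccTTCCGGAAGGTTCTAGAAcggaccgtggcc
Clpp: cgggtgttgtagTTCCGGAAgccaagccg
The Hspe1 window and one of the 2 Hspd1 windows share 285 bases, read on opposite strands. Both hold the same run of 4 units, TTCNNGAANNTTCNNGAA, at positions -89 to -72 from the Hspe1 start and -144 to -127 from the Hspd1 start. Runs of 4 units stood in 8 of 32851 mouse windows (0.0244%), and these windows of Hspd1 and Hspe1 were among the 8. Runs of 3 units, which the longer run contains, stood in 0.603% of windows. The shorter TTCNNGAA stood in 8.52% of windows, among them that of Clpp, where it lies at positions 34 to 41 after the start. The shared bases also hold the letters TGCAAT, the core bound by CHOP and C/EBP factors, found in 8.4% of windows on either strand. The other Hspd1 window and those of Grpel1, Trap1, Clpx and Lonp1 held none of these letters.

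The knocked-out gene followed the labels, with Stub1 at log2 levels of -2.43 to -1.72 on the CHIP null arrays and -0.24 to -0.01 on the wildtype arrays. Between 44.9% and 49.6% of probes were well above background on the 240 min arrays, and between 33.7% and 42.6% on the 30 min arrays. At 240 min heated arrays had 44.9% to 46.5% and controls 47.3% to 49.6%. In CHIP null cells at 30 min heated arrays had 33.7% to 37.4% and controls 39.9% to 42.6%. Wildtype arrays at 30 min overlapped, at 35.7% to 39.3% in heated and 37.6% to 42.4% in control cells. The part of the lower signal of heated arrays in the changes with heat was not tested. The fibroblast markers, Col1a1 and Vim among them, were above background on every array, 9 of 9. Macrophage markers were detected too, with between 3 and 11 of 13 well above background on all arrays of a group, while Ptprc and Itgam were not above background in any group. Arrays of the 2 time labels were scanned on 2 separate dates, so time and scan date cannot be told apart. The authors' value table carries the opposite time label on all 24 samples, with correlations of at least 0.9997 to the scanner file of the other time. Every time below is that of the scanner files, and a statement about 240 or 30 min would turn round if the table were right. The comparison of heated with control cells ran mostly across slides. In each genotype and time 1 slide held both treatments, with a lone array of one of them.

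By the brightest probe, the RNA of Hspd1 and Hspa9 was lower in heated than in control cells of both genotypes at both times. The second Hspa9 probe was called in none of these comparisons. None of the other 6 genes was called lower by limma, or had an unadjusted p under 0.05 in that direction. With each array centred on its median in place of loess, 2 of the 6 were called lower: Clpp in CHIP null cells at 30 min, by -0.50 (adjusted p = 0.0057), or -0.35 relative to the median of all probes, and Trap1 in CHIP null cells at 240 min, by -0.34 (adjusted p = 0.0325), or -0.17 relative to that median. Hspd1, the HSP60 barrel, fell by 0.64 to 0.99 on the log2 scale, and Hspa9 by 0.30 to 0.39. Hspe1, the HSP10 lid, rose by 0.27 in CHIP null and 0.23 in wildtype cells labelled 30 min. Other rises were small and each passed in 1 comparison: Grpel1 and Lonp1 in CHIP null cells at 240 min, Clpp in wildtype cells at 240 min, and Clpx in CHIP null cells at 30 min. A change was called at an adjusted p under 0.05 by limma, adjusted by Benjamini-Hochberg over all tested probes, and a gene was represented by its brightest probe.

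The members' counts are read against the share of all genes called. In CHIP null cells at 240 min, 2 of 8 genes rose and 2 fell, where 37.9% of all genes were called, 23.6% higher and 14.4% lower. Among wildtype cells at 240 min, 1 rose and 2 fell, against 30.5% of all genes, 18% higher and 12.5% lower. In CHIP null cells at 30 min, 2 rose and 2 fell, against 34.2% of all genes, 21.9% higher and 12.3% lower. Among wildtype cells at 30 min, 1 rose and 2 fell, against 13.2% of all genes, 6.03% higher and 7.19% lower. Against such shares a count of 3 or 4 among 8 genes says little, and the results below rest on the single genes. The median change of the 8 genes was 0.09 and 0.12 in CHIP null and wildtype cells at 240 min, where that of all genes was 0.07 and 0.06. At 30 min the medians were 0.13 and 0.01, against 0.03 and 0.01 over all genes.

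Hspd1 stood in the lowest tail of all genes in its response to heat. By place from the most lowered of 13486 genes, it was 35 in CHIP null and 26 in wildtype cells at 240 min, and 3 and 22 at 30 min. In CHIP null cells at 240 min its log2 levels were 0.39, -0.14 and -0.40 in heated cells, against 0.73, 0.80 and 0.81 in controls. At 240 min in wildtype cells they were 0.31, -0.11 and -0.17 in heated cells, against 0.78, 0.75 and 0.92 in controls. Every heated culture was thus below every control of its genotype, and heated replicate 1 was the highest in both. In CHIP null cells at 30 min the levels were -0.49, -0.30 and -0.27 in heated cells, against 0.67, 0.54 and 0.69 in controls. At 30 min in wildtype cells they were -0.31, -0.35 and -0.28 in heated cells, against 0.30, 0.27 and 0.41 in controls. Again no heated culture reached a control.

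**Figure D1:**
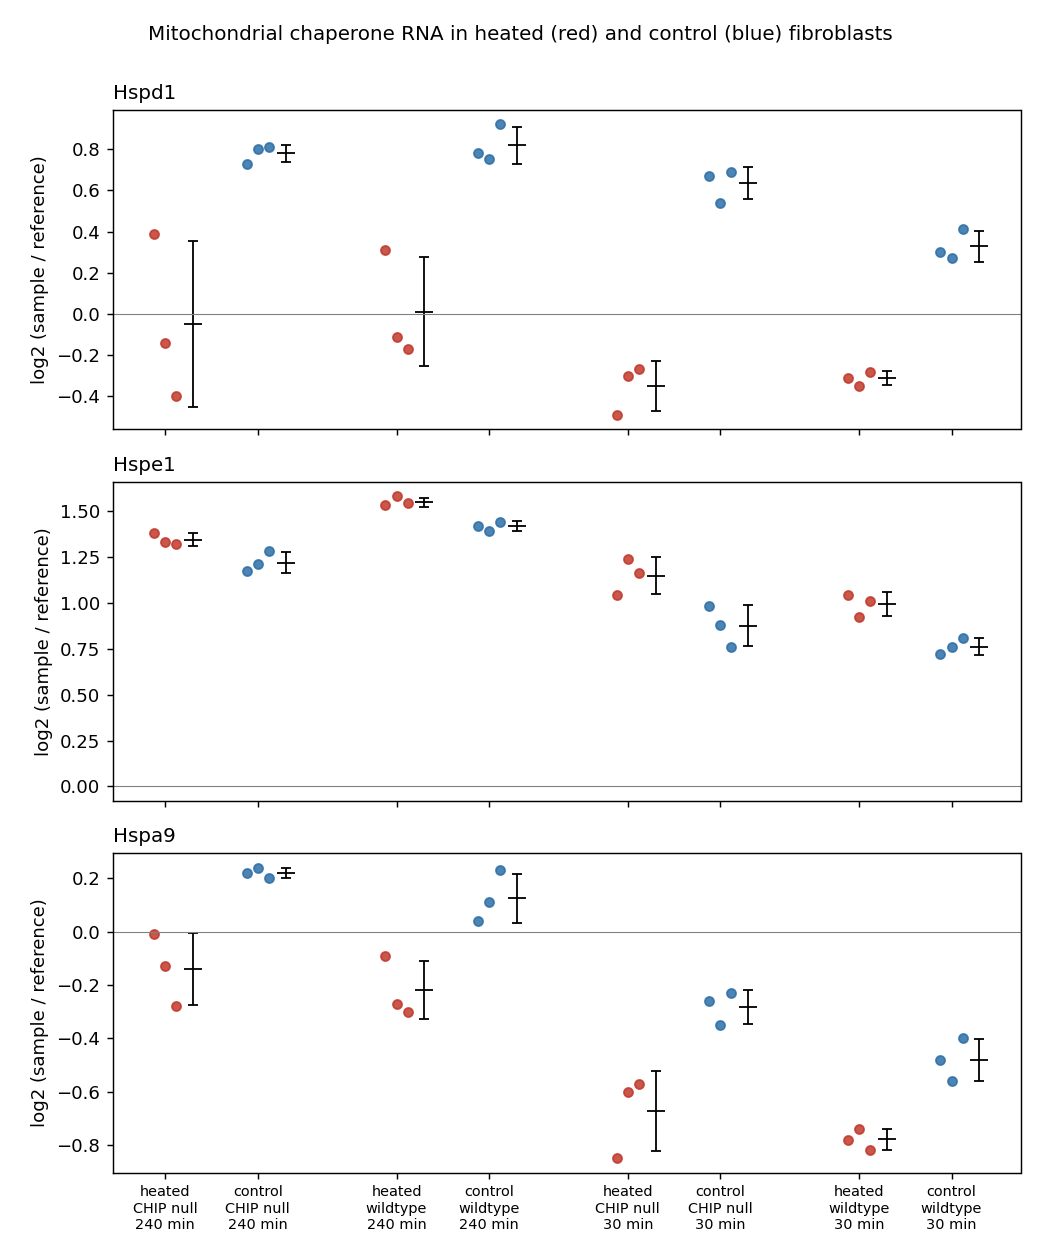
Log2 level of Hspd1, Hspe1 and Hspa9 (sample over reference RNA) on each of 24 arrays, with heated cultures in red and their controls in blue, and the mean ± SD of 3 arrays in black. Hspd1 and Hspa9 are lower in every heated culture than in every control of the same genotype and time, while Hspe1 is higher in every heated culture.

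These levels give a change in Hspd1 of -0.83 in CHIP null cells at 240 min (SE 0.12, adjusted p = 9.42e-06), which is 1.78-fold lower. It was -0.81 in wildtype cells at 240 min (SE 0.12, adjusted p = 1.9e-05), -0.99 in CHIP null cells at 30 min (SE 0.12, adjusted p = 2.47e-06) and -0.64 in wildtype cells at 30 min (SE 0.12, adjusted p = 0.000984). A second, dimmer Hspd1 probe gave smaller falls, of -0.45, -0.51, -0.55 and -0.40 in the same order, all called, the last with an adjusted p of 0.0598 without control replicate 1. With slide as a block the falls of the brighter probe were -0.86 (adjusted p = 0.000399), -0.51 (adjusted p = 0.059), -1.13 (adjusted p = 3.34e-05) and -0.73 (adjusted p = 0.013), so the call was lost in wildtype cells at 240 min. The difference within the 1 slide that holds both treatments was the same value in each case. In wildtype cells at 240 min the lone heated array of that slide was replicate 1, at a level of 0.31.

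Heated replicate 1 at 240 min, which was highest in Hspd1 in both genotypes, was also highest in Hspa1a, the inducible cytosolic HSP70. An Hspa1a probe with a value on every array had levels of 3.92, 2.09 and 0.57 in heated CHIP null cells, against -0.82, -0.74 and -0.78 in controls. In wildtype cells it had 3.72, 1.23 and 1.57 in heated cells, against -0.91, -0.88 and -0.93 in controls. The induction of Hspa1a was thus unequal among the heated cultures labelled 240 min. Without heated replicate 1, the change of Hspd1 was -1.05 in CHIP null and -0.96 in wildtype cells. The part of the unequal induction in the spread of Hspd1 was not tested.

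In cells labelled 30 min, Hspe1 moved the other way from Hspd1 on the same arrays. In CHIP null cells at 30 min its log2 levels were 1.04, 1.24 and 1.16 in heated cells, against 0.98, 0.88 and 0.76 in controls, a change of 0.27 (SE 0.06, adjusted p = 0.0013). At 30 min in wildtype cells they were 1.04, 0.92 and 1.01 in heated cells, against 0.72, 0.76 and 0.81 in controls, a change of 0.23 (SE 0.06, adjusted p = 0.0142). Heated cultures were above their controls without overlap. At 240 min the change was 0.13 in both genotypes, with an adjusted p of 0.109 in each, again without overlap. The rise is less secure than the fall of Hspd1. In wildtype cells at 30 min the call was lost without control replicate 1, heated replicate 1 or heated replicate 3, where the change stayed between 0.20 and 0.22. With slide as a block the changes at 30 min were 0.17 in CHIP null (adjusted p = 0.17) and 0.18 in wildtype cells (adjusted p = 0.302). With each array centred on its median in place of loess, the CHIP null change at 30 min turned to -0.16 (adjusted p = 0.32). Relative to the median of all probes that change was -0.0016. The wildtype change at 30 min was then 0.12 (adjusted p = 0.615), or 0.20 relative to that median. At 240 min the changes were -0.0642 in CHIP null and 0.22 in wildtype cells, neither called. Relative to that median they were 0.10 and 0.26.

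The 2 genes that share a promoter can be compared within an array, which takes out any shift common to both. The measure was formed after the genes were seen to move apart, and is given as a description with no test. The log2 level of Hspd1 minus that of Hspe1 averaged -1.39 ± 0.37 in heated and -0.44 ± 0.03 in control CHIP null cells at 240 min (SD, n = 3 each). In wildtype cells at 240 min it was -1.54 ± 0.28 in heated and -0.60 ± 0.06 in control cells. At 30 min it was -1.50 ± 0.06 in heated and -0.24 ± 0.15 in control CHIP null cells, and -1.30 ± 0.04 in heated and -0.43 ± 0.04 in control wildtype cells. The difference between heated and control cells was thus -0.96, -0.94, -1.26 and -0.87 in the 4 comparisons, and no heated array overlapped its controls.

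**Figure D2:**
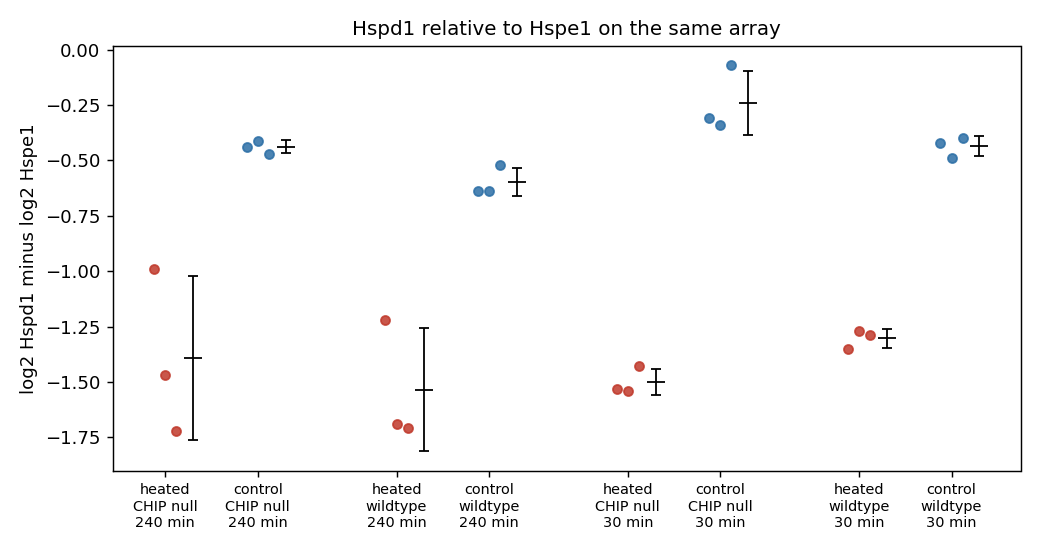
Difference between the log2 levels of Hspd1 and Hspe1 on the same array, with heated cultures in red, controls in blue and the mean ± SD of 3 arrays in black. Heated cultures average between -1.54 and -1.30 and controls between -0.60 and -0.24.

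Hspa9, the import motor and matrix HSP70, also fell. Its levels were -0.01, -0.13 and -0.28 in heated CHIP null cells at 240 min, against 0.22, 0.24 and 0.20 in controls. They were -0.09, -0.27 and -0.30 in heated wildtype cells at 240 min, against 0.04, 0.11 and 0.23 in controls. At 30 min they were -0.85, -0.60 and -0.57 in heated CHIP null cells, against -0.26, -0.35 and -0.23 in controls. They were -0.78, -0.74 and -0.82 in heated wildtype cells at 30 min, against -0.48, -0.56 and -0.40 in controls. The groups did not overlap in any of the 4 pairs. The changes were -0.36 (SE 0.07, adjusted p = 0.000614), -0.35 (SE 0.07, adjusted p = 0.00117), -0.39 (SE 0.07, adjusted p = 0.000302) and -0.30 (SE 0.07, adjusted p = 0.00923) in that order. A second Hspa9 probe gave -0.10, -0.20, -0.20 and -0.09, none of them called, with adjusted p-values between 0.0604 and 0.563. The last of these ran from -0.18 to 0.04 when 1 array was left out, so its direction turned. With slide as a block the fall in wildtype cells at 240 min was -0.22 (adjusted p = 0.167), and the other 3 were -0.34, -0.56 and -0.38, all called. The value of -0.22 rests on heated replicate 1, the lone heated array of its slide. With median centring the changes in wildtype cells were -0.29 at 240 min (adjusted p = 0.254) and -0.42 at 30 min (adjusted p = 0.118), which missed the threshold. Those in CHIP null cells were larger, at -0.61 at 240 min (adjusted p = 0.00334) and -0.86 at 30 min (adjusted p = 0.000367), or -0.45 and -0.70 relative to the median of all probes.

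With loess, the changes of Grpel1, the partner of Hspa9, lay above 0 in all 4 comparisons, between 0.06 and 0.19. At 240 min its level was -0.20, -0.12 and -0.01 in heated CHIP null cells, against -0.33, -0.25 and -0.31 in controls, a change of 0.19 (SE 0.06, adjusted p = 0.0131). The call was lost without heated replicate 3 or control replicate 1, where the change was 0.14 and 0.17. A second Grpel1 probe rose by 0.28 in CHIP null (adjusted p = 0.00139) and 0.33 in wildtype cells (adjusted p = 0.000365) at 240 min, while another, not well above background on part of the arrays, was not called. With each array centred on its median, the brightest Grpel1 probe changed by -0.0696 in CHIP null and 0.14 in wildtype cells at 240 min. At 30 min it changed by -0.27 and -0.0754. Relative to the median of all probes these changes were 0.10, 0.18, -0.12 and 0.002. Trap1 was called in no heat comparison, with changes between -0.04 and 0.14.

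No called change of a protease gene with heat was above 0.23. Lonp1, the AAA+ protease of the matrix, changed by 0.17 in CHIP null cells at 240 min (SE 0.06, adjusted p = 0.0247). Its other changes, of 0.04 in wildtype cells at 240 min and of 0.14 in CHIP null and 0.12 in wildtype cells at 30 min, were not called. Clpp, the peptidase, changed by 0.15 in wildtype cells at 240 min (SE 0.06, adjusted p = 0.0461), a call that was lost without any 1 of the 6 arrays, with changes between 0.12 and 0.17. Clpx, the unfoldase that feeds Clpp, changed by 0.23 in CHIP null cells at 30 min (SE 0.07, adjusted p = 0.0225), and lost the call without 3 of the 6 arrays. A second Clpx probe was not well above background on any array of 6 of the 8 groups and is given no fold. The Lonp1 call was lost without 4 of its 6 arrays. With each array centred on its median, the changes of Lonp1 (-0.13) and Grpel1 (-0.0696) in CHIP null cells at 240 min and of Clpx (-0.11) in CHIP null cells at 30 min turned below 0.

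**Figure D3:**
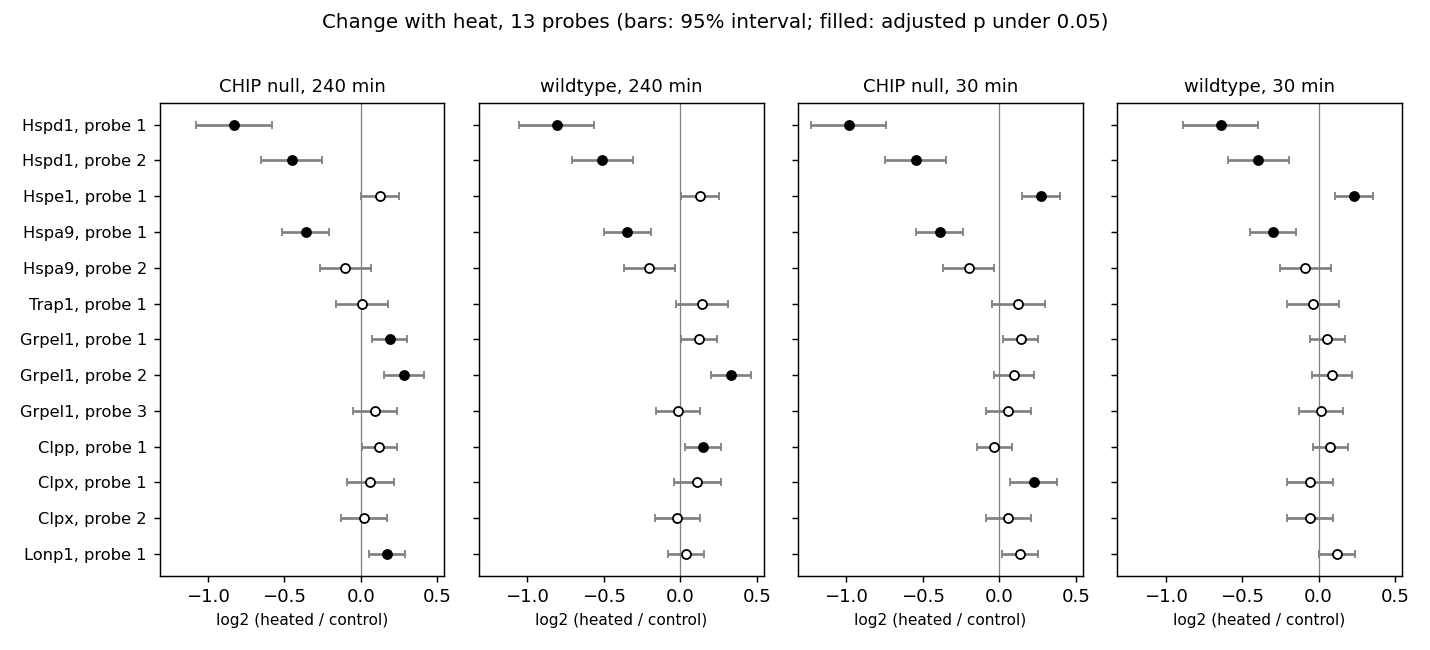
Change with heat (log2 of heated over control) of all 13 probes in each genotype and time, with bars for the 95% interval and filled points where the adjusted p was under 0.05. Both Hspd1 probes lie left of 0 in all 4 panels, from -0.99 to -0.40, and the Hspe1 probe lies right of 0.

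Lists of related genes are counted by the brightest probe of each gene, and other probes of a gene did not always give the same call. Of 14 further mitochondrial proteases, chaperones and partners, 8 rose and 1 fell in CHIP null cells at 240 min, where 23.6% of all genes were called higher and 14.4% lower. In wildtype cells at 240 min 6 rose and 0 fell by the brightest probe, with 0 lower at an unadjusted p under 0.05, where 18% of all genes were called higher and 12.5% lower. At 30 min 2 rose and 0 fell in CHIP null cells, where 21.9% of all genes were called higher and 12.3% lower. Among wildtype cells at 30 min, 0 were called by limma, and at an unadjusted p under 0.05, 3 were higher and 1 lower. Of all genes, 6.03% were called higher and 7.19% lower there. At 240 min the largest rises by the brightest probe were those of Clpb, a disaggregase, at 0.34 and Phb, a prohibitin of the inner membrane, at 0.34 in CHIP null cells, where Dnaja3, a DNAJ partner of Hspa9, was the 1 that fell, at -0.16. The other Dnaja3 probe was at 0.15 (adjusted p = 0.0904) in that comparison, so its direction depends on the probe. In wildtype cells at 240 min they were those of Hscb, an iron-sulphur cluster co-chaperone, at 0.32 and Clpb at 0.27. The other Clpb probe was not called, at 0.0865 in CHIP null and -0.0046 in wildtype cells at 240 min, while the other Phb probe rose by 0.19 in CHIP null cells. In CHIP null cells at 30 min the 2 genes were Hscb, at 0.31, and Htra2, a protease of the intermembrane space, at 0.27. The list's median changes were 0.18 and 0.11 in CHIP null and wildtype cells at 240 min and 0.10 and 0.06 at 30 min.

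Among 21 genes of import and presequence processing, 10 rose and 1 fell in CHIP null cells at 240 min, and 9 rose and 0 fell by the brightest probe in wildtype cells, with 1 lower at an unadjusted p under 0.05. At 30 min 9 rose and 3 fell in CHIP null cells, and 2 rose and 1 fell in wildtype cells. Of all genes at 240 min, 23.6% were called higher and 14.4% lower in CHIP null, and 18% and 12.5% in wildtype cells. At 30 min the shares were 21.9% higher and 12.3% lower in CHIP null, and 6.03% and 7.19% in wildtype cells. At 240 min the largest changes by the brightest probe in CHIP null cells were those of Immp2l, a subunit of the inner membrane peptidase, at 0.27, Timm17a, a channel subunit, at 0.26 and Tomm70a, an outer membrane receptor, at -0.17. Other probes gave larger called changes there, of -0.55 and -0.72 for Tomm70a, 0.38 for Immp1l and 0.33 for Timm13, and the other Timm17a probe was not called, at 0.0937. In wildtype cells they were those of Timm50 at 0.29 and Immp1l at 0.28, a presequence receptor and a subunit of the inner membrane peptidase, while 2 other Tomm70a probes fell, by 0.59 (adjusted p = 6.96e-06) and 0.69 (adjusted p = 2.48e-05). At 30 min Immp1l rose by 0.41 and Immp2l by 0.40 in CHIP null cells, where Timm8a1, a small intermembrane chaperone, fell by 0.23 and Tomm70a by 0.21. The other Immp2l probe was not called in CHIP null cells, at 0.1194 at 30 min and 0.1187 at 240 min. In wildtype cells at 30 min Immp1l rose by 0.27 and Dnajc19, a partner of the import motor, by 0.23, and Tomm70a fell by 0.22. The list's medians were 0.14 and 0.15 at 240 min and 0.09 and 0.10 at 30 min, in CHIP null and wildtype cells. With each array centred on its median in place of loess, few probes of any kind rose, between 0.357% and 4.02% of those called, and the direction of small rises depends on that choice.

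Of 6 listed regulators linked to the mitochondrial unfolded protein response, 5 were tested: Atf4, Ddit3 (CHOP), Cebpb, Hsf1 and Jun. Atf5, the remaining listed regulator, was not tested. By the brightest probe, 0 of these 5 rose in any of the 4 comparisons by limma, while another Hsf1 probe rose by 0.18 in CHIP null cells at 240 min (adjusted p = 0.0301). At an unadjusted p under 0.05, 1 was higher by the brightest probe in heated wildtype cells at 240 min, Atf4, by 0.16 (adjusted p = 0.111), and 0 in each of the others. Jun fell in 3 comparisons, by 0.39 in CHIP null and 0.32 in wildtype cells at 240 min and by 0.31 in CHIP null cells at 30 min. Over the 4 comparisons, between 6.03% and 23.6% of all genes were called higher, and between 7.19% and 14.4% lower.

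The cytosolic heat shock proteins moved in both directions. Of 12 tested, 2 rose and 1 fell in CHIP null cells at 240 min, and 4 rose and 1 fell in wildtype cells. At 30 min 4 rose and 5 fell in CHIP null cells and 1 rose and 5 fell in wildtype cells. Of all genes at 240 min, 23.6% were called higher and 14.4% lower in CHIP null, and 18% and 12.5% in wildtype cells. At 30 min the shares were 21.9% higher and 12.3% lower in CHIP null, and 6.03% and 7.19% in wildtype cells. The CCT counts below are read against the same shares. By its brightest probe Hspa1a rose by 2.24 in CHIP null cells at 240 min, a value without heated replicate 1, whose spot was an outlier, and by 3.27 in wildtype cells. At 30 min the other Hspa1a probes changed by 0.44, 0.34 and 0.24 in wildtype cells, none of them called. In CHIP null cells at 30 min they changed by 0.42, 0.46 and 0.22, and only the probe at 0.46 was called (adjusted p = 0.0329). Cryab, a small heat shock protein, rose by 0.20 in CHIP null cells at 240 min, and in the same comparison Dnajb1, an HSP40, fell by 0.19. Other probes there gave 0.0593 for Cryab and 0.18 for Dnajb1, neither of them called, and falls of 0.50 and 0.20 for Dnaja1, which its brightest probe did not call. Hspb1 rose by 0.31 and Dnajb1 fell by 0.20 in wildtype cells at 240 min, where the other Dnajb1 probe was at 0.0108, not called, and 2 other Dnaja1 probes fell by 0.45 and 0.18. At 30 min Cryab rose by 0.36 and Hspb1 by 0.29, and Dnaja1 fell by 0.50 and Hsp90aa1, an inducible HSP90, by 0.48 in CHIP null cells. In wildtype cells at 30 min Cryab rose by 0.26, and Dnajb1 fell by 0.38 and Hsp90aa1 by 0.36. At 30 min the other probes of Cryab, at 0.0899 in CHIP null and -0.0188 in wildtype cells, and of Dnajb1, at -0.21 in wildtype cells, were not called. Other Dnaja1 probes gave -0.0094, not called, and -0.35, called, in CHIP null cells at 30 min. Falls of named heat shock genes were thus not limited to the mitochondrial Hspd1 and Hspa9. The 8 subunits of CCT, the cytosolic relative of the HSP60 barrel, gave 0 calls by limma at 240 min in either genotype by the brightest probe, with 1 higher in each at an unadjusted p under 0.05, and 1 rise with 3 falls in CHIP null and 2 falls in wildtype cells at 30 min. At 240 min other probes were called higher, those of Tcp1 by 0.28 in CHIP null and 0.27 in wildtype cells and of Cct2 by 0.25 in wildtype cells.

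Macrophage markers moved with heat as well, but not in one direction. Of 11 tested, 8 rose in CHIP null and 4 in wildtype cells at 240 min and none fell, 5 rose and 1 fell in CHIP null cells at 30 min, and 7 fell in wildtype cells at 30 min. Their mean log2 level ranged over arrays from -1.47 to -1.35 in heated and -1.68 to -1.60 in control CHIP null cells at 240 min, and from -1.18 to -1.09 in heated and -1.34 to -1.25 in control wildtype cells. At 30 min it ranged from -1.10 to -1.01 in heated and -1.19 to -1.07 in control CHIP null cells, and from -0.93 to -0.81 in heated and -0.40 to -0.37 in control wildtype cells. The part of these markers in the changes of Hspd1 and Hspa9 was not tested. Fibroblast markers rose in 2 of 9 genes in both genotypes at 240 min, in 4 with 1 fall in CHIP null cells at 30 min, and fell in 1 in wildtype cells, by the brightest probe. For both marker lists, the shares of all genes at 240 min were 23.6% higher and 14.4% lower in CHIP null cells. In wildtype cells they were 18% and 12.5%. At 30 min they were 21.9% and 12.3% in CHIP null, and 6.03% and 7.19% in wildtype cells. Other probes of Col1a1, Thy1 and Fn1 rose by 0.52, 0.38 and 0.38 in wildtype cells at 30 min. In bulk cultures fewer cells of a type and less RNA per cell cannot be told apart.

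The heat responses of the 8 genes were then compared between the genotypes and between the times, as interaction terms. None of the 8 was called in any of the 4 interactions by limma, and 1 of them, Clpx, had an unadjusted p under 0.05, in the comparison of genotypes at 30 min, with a difference of 0.28 (adjusted p = 0.324), while 0 did in each of the other 3. Over all genes 0.297% were called between genotypes at 30 min, 0% at 240 min, and 2.11% and 1.09% between times in CHIP null and wildtype cells. The change of Hspd1 in CHIP null cells minus that in wildtype cells was -0.35 at 30 min, with a 95% interval from -0.69 to 0.00 and an adjusted p of 0.462. At 240 min the difference was -0.02, with an interval from -0.37 to 0.33. For Hspe1 the differences between genotypes were 0.00 and 0.04 at 240 and 30 min, with intervals within -0.18 and 0.22. The number of arrays limits how small a difference between genotypes could be detected.

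Loss of CHIP was next compared at fixed treatment and time. Lonp1 was higher in CHIP null than in wildtype cells in all 4 comparisons, and was the only member called in every one. At 240 min 1 of 8 genes was higher and 2 were lower in CHIP null cells in both the heated and the control cultures. Over all genes 12% were called in heated cells, 4.31% higher and 7.73% lower, and 12.4% in controls, 4.52% higher and 7.91% lower. At 30 min 2 were higher and 0 lower in heated cells, against 26.6% of all genes, 13.7% higher and 12.9% lower. In controls at 30 min 2 were higher and 1 lower, against 33.1% of all genes, 14.2% higher and 18.9% lower. The 4 comparisons use different arrays. The median of the 8 genes was -0.06 in heated and -0.05 in control cells at 240 min and 0.09 and 0.13 at 30 min, against -0.01 and -0.02, then 0.01 and -0.01, over all genes.

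Lonp1 had levels of 0.21, 0.33 and 0.35 in heated CHIP null cells at 240 min, against -0.04, -0.03 and 0.00 in heated wildtype cells. In controls at 240 min it had 0.12, 0.17 and 0.10 in CHIP null cells, against -0.07, -0.05 and -0.08 in wildtype cells. These groups did not overlap. At 30 min the levels were -0.04, 0.12 and 0.07 in heated CHIP null cells, against -0.25, -0.13 and -0.19 in heated wildtype cells. In controls at 30 min they were -0.06, -0.08 and -0.13 in CHIP null cells, against -0.28, -0.40 and -0.26 in wildtype cells. The CHIP null arrays were higher without overlap in each of the 4 pairs. The differences were 0.33 (SE 0.06, adjusted p = 0.000175), 0.20 (SE 0.06, adjusted p = 0.0217), 0.24 (SE 0.06, adjusted p = 0.00237) and 0.23 (SE 0.06, adjusted p = 0.00329) in that order, or between 1.15-fold and 1.26-fold.

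The Lonp1 call in controls at 240 min was lost without 4 of its 6 arrays, with differences between 0.18 and 0.22, and the other 3 were called whichever array was left out. No slide held both genotypes under the same treatment, so the fit with slide as a block reaches the genotypes only through other groups. It gave 0.37 (adjusted p = 0.0743) in heated and 0.19 (adjusted p = 0.453) in control cells at 240 min, and 0.36 (adjusted p = 0.0293) and 0.39 (adjusted p = 0.0184) at 30 min. With the ratio of the scanner software, and with the authors' value table under its own time labels, the calls held in all 4 comparisons. With each array centred on its median the differences were 0.20, 0.33, 0.20 and 0.47, and only the last was called (adjusted p = 0.00702).

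**Figure D4:**
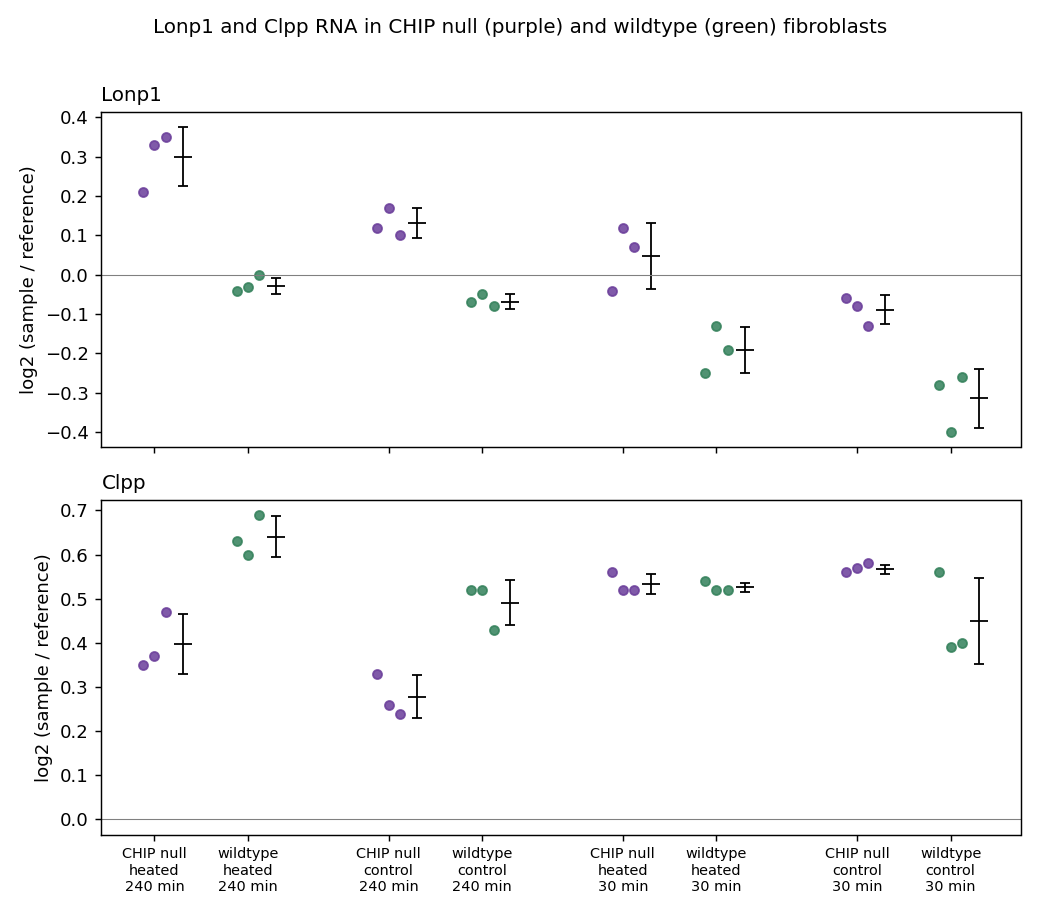
Log2 level of Lonp1 and Clpp (sample over reference RNA) on each of 24 arrays, with CHIP null cells in purple, wildtype cells in green and the mean ± SD of 3 arrays in black. Lonp1 is higher in all CHIP null arrays than in the wildtype arrays beside them, and Clpp is lower in CHIP null arrays at 240 min alone.

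Clpp was lower in CHIP null cells at 240 min. Its levels were 0.35, 0.37 and 0.47 in heated CHIP null cells, against 0.63, 0.60 and 0.69 in heated wildtype cells, a difference of -0.24 (SE 0.06, adjusted p = 0.00403). In controls they were 0.33, 0.26 and 0.24 in CHIP null cells, against 0.52, 0.52 and 0.43 in wildtype cells, a difference of -0.21 (SE 0.06, adjusted p = 0.0115). Neither pair overlapped, and the call in controls was lost without control replicate 1 or 2 of wildtype or replicate 3 of CHIP null cells, at -0.20 to -0.19. At 30 min the differences were 0.01 in heated and 0.12 in control cells, neither called. Both calls at 240 min were lost under 3 other settings, each with the difference still below 0. The differences were -0.19 in heated and -0.20 in control cells with slide as a block, -0.23 and -0.20 with the scanner software's ratio, and -0.36 and -0.12 with median centring, with adjusted p-values between 0.075 and 0.808. Lonp1 and Clpp lie on chromosome 17 of the RefSeq build, as does Stub1. Any part of this position in their differences between genotypes was not tested.

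Among the chaperones, Hspe1 was lower in CHIP null cells at 240 min by 0.20 in heated (SE 0.06, adjusted p = 0.0295) and by 0.20 in control cells (SE 0.06, adjusted p = 0.0326). Its levels were 1.38, 1.33 and 1.32 in heated CHIP null cells, against 1.53, 1.58 and 1.54 in heated wildtype cells. In controls they were 1.17, 1.21 and 1.28 in CHIP null cells, against 1.42, 1.39 and 1.44 in wildtype cells. The groups did not overlap, yet each call was lost without 5 of its 6 arrays, with differences between -0.23 and -0.17. At 30 min Hspe1 was 0.16 higher in heated and 0.11 higher in control CHIP null cells, neither called. With median centring the difference in controls at 30 min was 0.43 and called (adjusted p = 0.0117).

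Hspa9 was higher by 0.20 in control CHIP null cells at 30 min (SE 0.07, adjusted p = 0.044), a call lost without 4 of the 6 arrays, over a range of 0.16 to 0.24. Its second probe was higher by 0.39 in control (adjusted p = 0.000436) and 0.28 in heated cells (adjusted p = 0.013) at 30 min. Hspd1 was higher by 0.31 in control CHIP null cells at 30 min, with an adjusted p of 0.0547 for the brighter and 0.0029 for the dimmer probe, which differed by 0.39. With median centring the brighter probe differed by 0.72 (adjusted p = 0.00991) and that of Hspa9 by 0.56 (adjusted p = 0.0132) in that comparison. At 240 min in heated and control cells and at 30 min in heated cells the brighter Hspd1 probe differed by -0.06 to -0.04. Trap1 had levels of 0.34, 0.32 and 0.24 in heated CHIP null cells at 30 min, against -0.03, 0.02 and 0.00 in heated wildtype cells, without overlap. It was higher by 0.30 (SE 0.08, adjusted p = 0.00816), and Clpx was lower by 0.20 in controls at 30 min (SE 0.07, adjusted p = 0.0419). The Clpx call was lost without 3 of the 6 arrays, over a range of -0.27 to -0.10, and its direction turned with slide as a block. Grpel1 was called in none of the 4, with differences between -0.07 and 0.02.

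**Figure D5:**
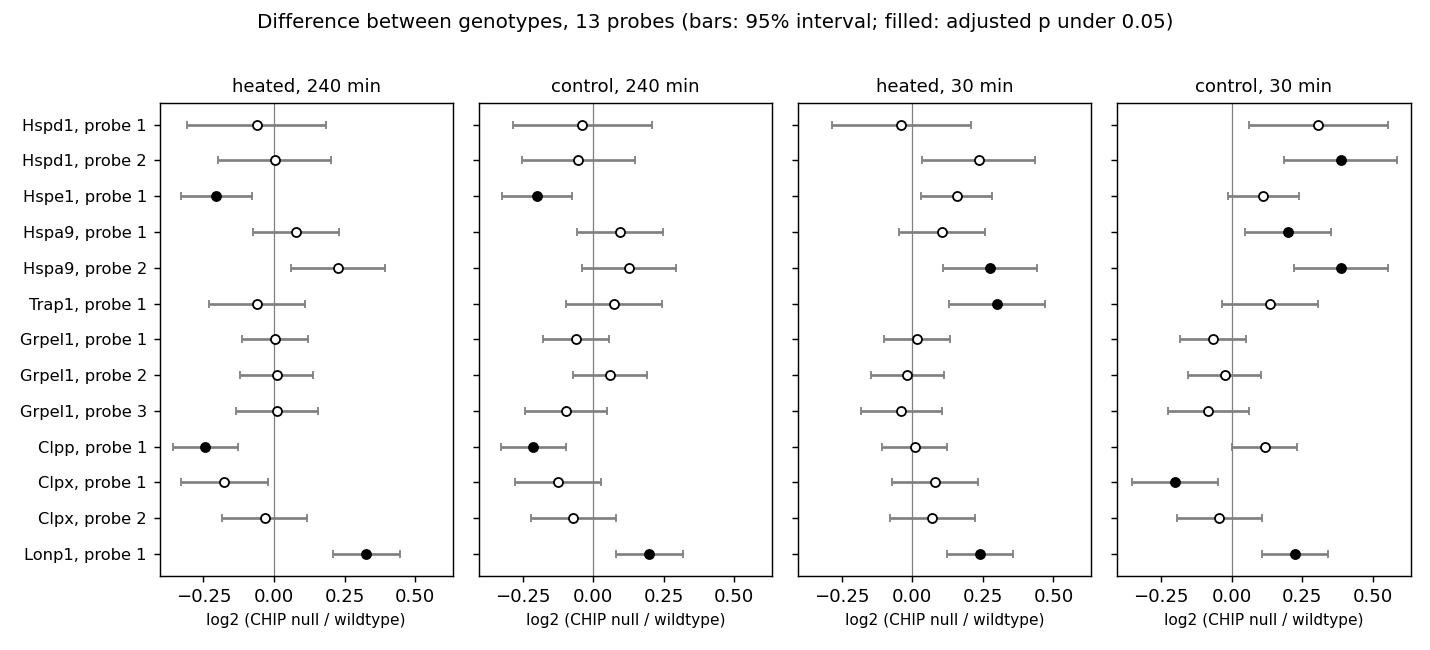
Difference between genotypes (log2 of CHIP null over wildtype) of all 13 probes in heated and control cells at each time, with bars for the 95% interval and filled points where the adjusted p was under 0.05. Lonp1, the lowest row, lies right of 0 in all 4 panels, between 0.20 and 0.33.

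Of the 14 further mitochondrial proteases and chaperones, 0 were called between genotypes at 240 min by limma, where at an unadjusted p under 0.05, 1 was higher and 2 lower in heated and 1 higher and 1 lower in control CHIP null cells. At 30 min 2 were higher in heated CHIP null cells, and 1 was higher and 1 lower in controls. Of the 21 import genes, 2 were lower in heated and 1 in control CHIP null cells at 240 min, 5 were higher and 3 lower in heated cells at 30 min, and 8 were higher and 4 lower in controls. Of all genes at 240 min, 4.31% were called higher and 7.73% lower in heated, and 4.52% and 7.91% in control cells. At 30 min the shares were 13.7% and 12.9% in heated, and 14.2% and 18.9% in control cells. The counts of every list here are read against these shares. Among the 5 regulators, 1 was higher in heated and 2 in control cells at 240 min, and 2 and 3 at 30 min. Those called, named after their values were seen, were Cebpb in all 4 comparisons, by 0.46, 0.36, 0.74 and 0.98, Atf4, a transcription factor of the integrated stress response, in 3, by 0.25, 0.38 and 0.25, and Jun in controls at 30 min, by 0.25. These values are of the brightest probe of each gene, and those of another Cebpb probe are not given here. Macrophage markers were lower in CHIP null cells in 4 of 11 genes in heated and 6 in control cells at 240 min, in 3 in heated and in all 11 in control cells at 30 min. Fibroblast markers were higher in 6 of 9 in heated and 6 in control CHIP null cells at 240 min, and in 6 with 1 lower and 3 with 1 lower at 30 min. Their part in the differences of Lonp1, Clpp and Hspe1 was not tested.

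The levels of the unheated cells also differed with the time label. In CHIP null controls 3 of 8 genes were higher at 240 than at 30 min and 3 lower, where 48.3% of all genes were called, 19% higher and 29.3% lower. In wildtype controls 4 were higher and 1 lower, where 63.2% were called, 27.7% higher and 35.4% lower. Hspa9 was higher at 240 min by 0.50 in CHIP null and 0.61 in wildtype cells, Hspe1 by 0.34 and 0.66, and Lonp1 by 0.22 and 0.25. Hspd1 was higher by 0.49 in wildtype cells, and by 0.15 in CHIP null cells without a call. Grpel1 was lower by 0.22 in both genotypes, and Clpp by 0.29 and Trap1 by 0.23 in CHIP null cells. With the labels of the authors' value table, 1 was higher and 4 were lower in CHIP null controls, and 1 was higher and 5 were lower in wildtype controls. Time label and scan date cannot be told apart here.

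Across the 8 groups, the order of the means puts Hspd1 highest in the controls and lowest in the heated cells. It averaged 0.78 ± 0.04 in CHIP null and 0.82 ± 0.09 in wildtype controls at 240 min, which overlapped, then 0.63 ± 0.08 in CHIP null and 0.33 ± 0.08 in wildtype controls at 30 min (SD, n = 3 each). The 4 heated groups followed, from 0.01 ± 0.26 in wildtype cells at 240 min to -0.35 ± 0.12 in CHIP null cells at 30 min, and each overlapped the next. Heated wildtype cells at 240 min, up to 0.31, and heated CHIP null cells at 240 min, up to 0.39, also overlapped wildtype controls at 30 min, which reached down to 0.27. For Hspe1 the means of all groups labelled 240 min lay above those of all groups labelled 30 min, highest in heated wildtype cells at 240 min, at 1.55 ± 0.03, and lowest in wildtype controls at 30 min, at 0.76 ± 0.05, with CHIP null controls at 30 min next to them and overlapping. Hspa9 averaged between -0.78 ± 0.04 in heated wildtype cells at 30 min and 0.22 ± 0.02 in CHIP null controls at 240 min, and heated CHIP null cells at 30 min overlapped the lowest group. Lonp1 averaged between -0.31 ± 0.07 in wildtype controls at 30 min and 0.30 ± 0.07 in heated CHIP null cells at 240 min, and neither overlapped its neighbour. Clpp averaged between 0.28 ± 0.05 in CHIP null controls at 240 min and 0.64 ± 0.05 in heated wildtype cells at 240 min, Clpx between -1.20 ± 0.12 and -0.92 ± 0.10, Trap1 between -0.13 ± 0.08 and 0.30 ± 0.05, and Grpel1 between -0.30 ± 0.04 and 0.06 ± 0.05. Over the 8 group means, the genes whose pattern was most like that of Hspd1 were Ipo7, Rlim, Cul3, Wdr82 and an unnamed transcript, with Pearson's r between 0.986 and 0.991. Hspa9 stood at place 801 of 13485 genes, with r = 0.80, and Hspe1 at place 5851, with r = -0.01. For Hspe1 they included Cfdp1, Nol7 and Btf3, with r between 0.981 and 0.984. These are descriptions over 8 means that share the reference RNA and the scan dates.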

How the data were processed

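RNA of 24 fibroblast cultures was labelled with Cy5 and hybridised with Cy3-labelled Universal Mouse Reference RNA to 2-colour Agilent arrays, without dye swaps, per the labels. Spot intensity was read by Agilent Feature Extraction 9.1.3.1, per the file headers. The authors' deposited value table holds log ratios whose base, centring and time labels are not given in the sources used here. The scanner's log10 ratio of Cy5 over Cy3 was computed by Feature Extraction, per the file headers. The table's control columns equal this log10 ratio over ln 2, within 0.001 for at least 99.18% of probes, with Cy5 over Cy3. Its column medians ran from -0.046 to 0.023. Flags for outlier, background and saturated spots were used as the authors deposited them.

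Here the mean intensity was background-corrected (normexp, offset 50), loess-normalized within arrays with control spots at weight 0, and expressed as log2 of Cy5 over Cy3. Outlier spots (333) were left out and spots of a probe averaged. A limma model (3.58.1, R 4.3.3) of the 8 group means was fitted to 24 arrays over 19356 probes that were well above background on all arrays of at least 1 group, with Benjamini-Hochberg adjustment in each of 14 comparisons at 0.05. Of 41174 probes, 22951 were named by accession, 6659 by symbol and 3109 by synonym in RefSeq's tables, and 8455 kept the file's name. On data simulated for heat in wildtype cells at 30 min, over 19356 probes, 93% of changes of 0.5 and 100% of changes of 1 on the log2 scale were recovered. The changes were placed in part of the probes, with independent noise and no slide effect. Changes under 0.5 were not simulated, so the recovery of such changes is not known. Members and gene lists were chosen with earlier results of these data known. Within lists, up to 2 genes with the largest called change in each direction are named. Alternatives covered offset, normalization, filter, probe choice, replicate and slide blocks, the value table and each array left out.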

Additional observations from a re-analysis of the deposited data

How the results depend on the processing

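Of the 8 genes' counts of calls, the following moved by more than 1.5 times. Heat in CHIP null cells at 240 min gave 4 calls, and 2 with the scanner software's ratio or slide as a block. Heat in wildtype cells at 240 min gave 3, with 1 under median centring and 0 under the slide block. Heat in CHIP null cells at 30 min gave 4, with 2 under the slide block or in the authors' table, and heat in wildtype cells at 30 min gave 3, with 1 under median centring. Loss of CHIP at 240 min gave 3 in heated and 3 in control cells, with 0 under median centring, 1 with the scanner's ratio and 0 under the slide block in each. At 30 min it gave 2 in heated cells, with 0 under median centring, 4 with the mean of a gene's probes and 1 in the authors' table, and 3 in controls, with 1 without the filter or in the authors' table. CHIP null controls between times gave 6, and 3 under median centring. Leaving out 1 array gave 2 to 4, 2 to 2, 3 to 5 and 2 to 3 calls for heat in the order above, 2 to 3 and 0 to 2 for CHIP loss at 240 min in heated and control cells, 2 to 3 and 1 to 3 at 30 min, 0 to 0 for each interaction, and 5 to 6 for each time comparison of controls. Under median centring the direction turned for Hspe1 (-0.16), Grpel1's second probe (-0.31) and Clpx (-0.11) with heat in CHIP null cells at 30 min, and for Trap1 (-0.34), Grpel1 (-0.0696 and -0.0399) and Lonp1 (-0.13) at 240 min, where the median of all probes was itself -0.15 and -0.17. Other changes with heat, not called under either setting, also turned below 0 by the brightest probe. In CHIP null cells they were Trap1 (-0.27), Grpel1 (-0.27) and Lonp1 (-0.29) at 30 min. At 240 min they were Hspe1 (-0.0642), Clpp (-0.13) and Clpx (-0.28). In wildtype cells they were Grpel1 (-0.0754), Clpp (-0.0753) and Lonp1 (-0.0233) at 30 min. Trap1 (-0.0095), Clpx (-0.0373) and Lonp1 (-0.0024) turned there at 240 min. Between genotypes, small uncalled differences turned under median centring, among them that of Grpel1 in controls at 30 min (0.19). The direction turned for Clpx in controls at 30 min under the slide block (0.0546). In the authors' table, which has the times the other way, it turned between genotypes for Hspd1's second probe (-0.10) in controls at 30 min, for Hspd1 (0.42 and 0.47), Hspe1 (0.18) and Clpp (0.0095) in controls at 240 min, for Trap1 (-0.0058) in heated cells at 30 min, and for Hspe1 (0.24) and Trap1 (0.42) in heated cells at 240 min. The causes were not tested.

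Over all probes, heat in CHIP null cells at 240 min, wildtype at 240 min, CHIP null at 30 min and wildtype at 30 min gave 6784, 5513, 5931 and 2170 calls, of which 59.6%, 57.2%, 61.3% and 46.6% were higher. The slide block gave 3378, 710, 3155 and 442. Median centring gave 6717, 2688, 6750 and 696, with 0.357%, 3.76%, 0.948% and 4.02% higher, and the scanner's ratio 3381, 3082, 6012 and 3279, with 38.7%, 41.2%, 42.8% and 38.5% higher. Replicate numbers did not pair the arrays, with correlations of deviations from -0.22 to 0.21 and 4 of 12 pairs best with their own number. With the replicate number as a block the counts were 6839, 5530, 5927 and 2199, and Clpp with heat in wildtype cells at 240 min, 0.15, lost its call (adjusted p = 0.0738). A block within time for CHIP loss, chosen after seeing the data, gave Hspd1 in controls at 30 min 0.31 (adjusted p = 0.0313). A block for scan date was not run, since each date holds 1 time label.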
